A study of Mus musculus with 41 samples.

Results

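A set of 10 genes of T cells and regulatory T cells was followed across 41 RNA sequencing libraries of mouse endometriosis lesions in 11 groups. They were chosen by name, and all 10 had a row in the deposited table of raw counts, which held 21249 genes. They were Cd3d, Cd3e and Cd3g (chains of the CD3 complex), the co-receptor genes Cd4, Cd8a and Cd8b1, and 4 genes linked to regulatory T cells (Foxp3, Ctla4, Ikzf2 and Lrrc32). The rule that lists them uses no measured value, but they were chosen with earlier results of these data known.

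The lesions were uterine punches of 4 mm fixed to the inside of the abdominal wall of mice aged 12 to 16 weeks. From 7 days later the animals had 3 intraperitoneal doses of 1 µg interleukin-33 (IL-33) or of PBS within 6 days. IL-33 activates group 2 innate lymphoid cells (ILC2s), and the series compared ILC2-competent with ILC2-deficient mice. Competent groups given IL-33 were C57Bl/6J mice (wild type, n = 4), Id2fl/fl mice (floxed controls, n = 4) and Nmur1iCre-eGFP mice (Cre controls, n = 4). Mice with both alleles, Nmur1iCre-eGFP Id2fl/fl, are called deficient here, and they received IL-33 (n = 4), PBS (n = 4) or IL-33 with added PBS (n = 4). Deficient mice also received IL-33 after transfer of 250000 ILC2s (n = 4) or 120000 ILC2s (n = 2), and wild-type mice after transfer of 120000 ILC2s (n = 3). Lesions were also crossed between genotypes under IL-33, with uterine fragments of Cre controls placed in deficient mice (n = 4) and fragments of deficient mice placed in Cre controls (n = 4). In every other group the recipient was taken to have the genotype given for the fragment. The Cre is driven from Nmur1, a receptor gene of ILC2s, so Id2 is lost only in cells that use that driver, and all groups other than wild type and floxed controls carried the Cre. Whether replicates are separate animals is not stated in the labels, so each p-value is read against the spread between libraries of a group, which may be technical in part.

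T cells recognise antigen through a receptor that signals by the CD3 chains, with CD4 or CD8 as co-receptor. Regulatory T cells restrain other immune cells, and the transcription factor Foxp3 sets their identity. CTLA-4 is an inhibitory receptor of these and of activated T cells, Helios (Ikzf2) is a transcription factor of many regulatory T cells, and GARP (Lrrc32) holds latent TGF-beta at the cell surface. Some of these genes are also used outside T cells, among them Cd4 in some dendritic cells, Lrrc32 in endothelium and platelets and Ikzf2 in several tissues.

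Library totals ran from 28.9 to 70.5 mega-counts (median 42.9). Of 14 liver genes, listed after values of these data were known, the summed share was 2.91% to 11.3% in 4 libraries and at most 0.128% in the other 37. The uterine markers Pgr (median 98.4 CPM), Esr1 (161 CPM) and the keratin gene Krt8 (23.4 CPM) had counts in every library. Id2 itself had group medians of 36.6 to 55.9 CPM and did not pass between deficient and competent lesions (log2 0.13 ± 0.21, adjusted p = 0.741), and whole-lesion RNA does not check a deletion in 1 cell type. The ILC2 cytokine gene Il13 fell by 4.57 ± 0.57 in deficient lesions (log2, adjusted p = 1.14e-05). Library names run in series that mostly follow the groups, so a run and a group cannot be told apart, except that Cre controls interleave with deficient lesions and the 250000-ILC2 group with the added-PBS group. Levels are CPM, counts divided by the TMM-scaled library total in mega-counts.

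A pair of libraries stood apart in T cell genes and bear on most results below. In replicate 3 of the Cre fragments in deficient recipients, 9 of the 10 genes were higher than in any other library of the series. Replicate 1 of the deficient fragments in Cre recipients had the next-highest level of 8 of them. The calls of the transfer comparisons are given with these libraries and without both.

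The CD3 genes lie together on chromosome 9, and their promoters are shown because these 3 genes moved together across the libraries. On GRCm38 with GENCODE M21, Cd3g runs from 44969572 to 44980431 on the minus strand and Cd3d from 44981786 to 44987339 on the plus strand. Their annotated starts face away from each other 1355 bases apart. Cd3e runs from 44998740 to 45009627 on the minus strand, with its end 11401 bases from the end of Cd3d. The sequences below are the RefSeq windows (build GRCm38.p6) from 250 bases before to 50 bases after each start, on the strand of the gene, at chr9:44980382-44980681 (Cd3g, minus), chr9:44981536-44981835 (Cd3d, plus) and chr9:45009562-45009861 (Cd3e, minus). Capitals mark the letters GGAA or TTCC, the core that factors of the ETS family bind, in either orientation.
Cd3g: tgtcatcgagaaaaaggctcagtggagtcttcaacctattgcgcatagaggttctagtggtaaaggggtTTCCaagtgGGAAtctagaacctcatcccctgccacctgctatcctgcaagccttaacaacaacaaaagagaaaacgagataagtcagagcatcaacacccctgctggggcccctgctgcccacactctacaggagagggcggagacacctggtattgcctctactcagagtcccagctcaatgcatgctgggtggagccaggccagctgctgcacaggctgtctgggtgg
Cd3d: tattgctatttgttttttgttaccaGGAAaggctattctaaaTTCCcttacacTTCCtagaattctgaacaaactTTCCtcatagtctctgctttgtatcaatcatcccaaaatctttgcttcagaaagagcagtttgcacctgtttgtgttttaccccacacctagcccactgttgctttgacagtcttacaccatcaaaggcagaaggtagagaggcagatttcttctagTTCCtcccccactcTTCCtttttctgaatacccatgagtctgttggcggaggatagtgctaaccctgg
Cd3e: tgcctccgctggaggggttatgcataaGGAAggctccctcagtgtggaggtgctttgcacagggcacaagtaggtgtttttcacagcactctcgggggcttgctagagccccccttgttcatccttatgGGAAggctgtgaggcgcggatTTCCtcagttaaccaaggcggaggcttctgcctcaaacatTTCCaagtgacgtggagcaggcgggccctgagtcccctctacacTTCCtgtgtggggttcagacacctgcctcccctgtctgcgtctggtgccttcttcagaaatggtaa

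The core occurred 2 times in the Cd3g window, 6 times in that of Cd3d and 5 times in that of Cd3e. It is common, with 96.0% of 32851 mouse promoter windows of the same length holding it. The RUNX core TGTGGT (or ACCACA) was in none of the 3 windows and in 16.8% of all windows, and the letters TATAAA (or TTTATA) were in none of the 3 and in 13.6% of all. The GATA motif AGATAA (or TTATCT) was in the Cd3g window and in 11.2% of all windows. The GC content was 54% for Cd3g, 42.3% for Cd3d and 56.7% for Cd3e. These matches describe letters in a window and are not binding sites.

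The co-receptor genes lie on chromosome 6, Cd8b1 from 71322788 to 71337494 and Cd8a from 71373427 to 71379173, both on the plus strand and 35933 bases apart, and Cd4 from 124864692 to 124888221 on the minus strand. Foxp3 lies on chromosome X (7573644 to 7595245, plus), Ctla4 (60887000 to 60915832, plus) and Ikzf2 (69531214 to 69687245, minus) on chromosome 1, and Lrrc32 on chromosome 7 (98489283 to 98502181, plus). All are annotated as protein-coding. Exons of Foxp3 share bases with 4 other genes in the table, Flicr (853), Ccdc22 (590), Gm36995 (373) and Ppp1r3f (266), and no source used here gives the strand setting of the counting. Reads from those bases cannot be assigned to 1 gene with certainty.

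Per kilobase of exon, Lrrc32 was by far the most abundant of the 10 genes, with a median over libraries of 15.2 CPM per kilobase. Ikzf2 followed at 1.95, Cd4 at 1.07, Ctla4 at 0.666 and Cd3e at 0.603 CPM per kilobase. Cd3d (0.366), Cd3g (0.359), Foxp3 (0.344), Cd8a (0.231) and Cd8b1 (0.216) were the lowest. The counts behind these values were small for most genes. Cd8b1 had 1 to 912 counts in a library (median 13), Cd8a 5 to 2261 (median 36) and Foxp3 22 to 487 (median 77), against 1342 to 4619 for Lrrc32 (median 2984). A level of Cd8b1 in a single library of low counts is therefore known only coarsely.

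**Figure D1:**
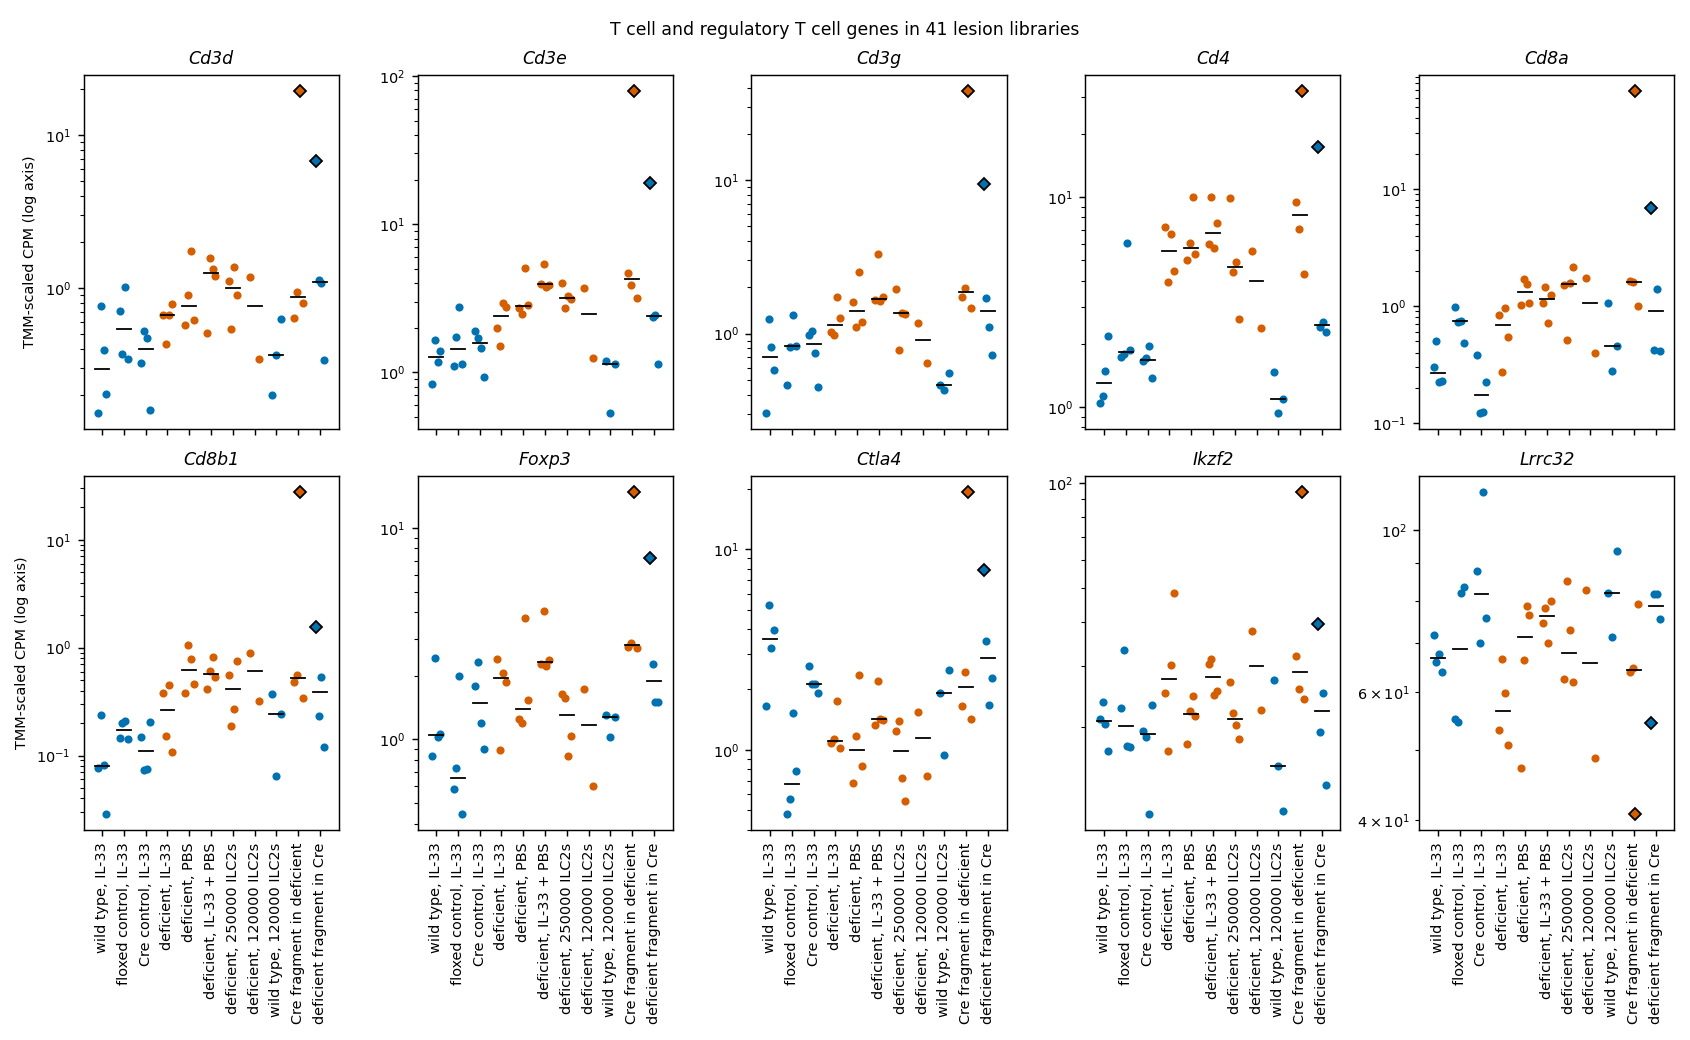
Level of each gene in each of the 41 libraries (CPM after TMM scaling, log axis) by group, with points for libraries and bars for group medians. Blue marks groups with competent recipients, orange marks deficient recipients, and diamonds mark replicate 3 of the Cre fragments in deficient recipients and replicate 1 of the deficient fragments in Cre recipients, the top values of Cd3e at 79.6 and 19.0 CPM.

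Cd3e, the signalling chain found in every T cell receptor complex, was low in all groups apart from these libraries. In wild-type lesions it stood at 0.839, 1.66, 1.17 and 1.38 CPM, in floxed controls at 1.11, 1.73, 2.74 and 1.13 and in Cre controls at 1.92, 1.70, 1.47 and 0.923. In IL-33-treated deficient lesions it stood at 1.99, 1.5, 2.94 and 2.78 CPM, with PBS at 2.71, 2.46, 5.08 and 2.86 and with added PBS at 3.95, 5.37, 3.77 and 3.89. All 4 added-PBS libraries lay above the 12 competent control libraries, as did the 4 libraries of Cre fragments in deficient recipients given below. The deficient groups with IL-33 alone or with PBS overlapped these controls. After 250000 ILC2s it stood at 4.03, 2.71, 3.25 and 3.13 CPM, after 120000 ILC2s at 3.73 and 1.24 in deficient mice and at 1.19, 0.535 and 1.14 in wild-type mice. The last group held the lowest library of the series. Cre fragments in deficient recipients had 4.65, 3.90, 79.6 and 3.19 CPM and deficient fragments in Cre recipients 19.0, 2.35, 2.45 and 1.13. A single library in each of these groups was far above the other 3.

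Cd3g and Cd3d, the chains that pair with CD3 epsilon, showed the same libraries at the top. Cd3g had 1.74, 1.97, 38.3 and 1.48 CPM in Cre fragments in deficient recipients and 9.50, 1.71, 1.10 and 0.724 in deficient fragments in Cre recipients. Cd3d had 0.638, 0.942, 19.6 and 0.791 CPM in the first and 6.75, 1.13, 1.07 and 0.338 in the second. In the other 9 groups group medians ran from 0.463 to 1.69 CPM for Cd3g and from 0.296 to 1.25 CPM for Cd3d. In both genes the lowest and highest of those medians belonged to a wild-type group and to the added-PBS group.

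Cd4, the co-receptor of helper and most regulatory T cells, differed in its levels between deficient and competent recipients. In wild-type lesions it stood at 1.04, 1.13, 1.48 and 2.19 CPM, in floxed controls at 1.73, 1.78, 6.04 and 1.86 and in Cre controls at 1.65, 1.70, 1.96 and 1.37. In deficient lesions it stood at 7.20, 3.92, 6.67 and 4.43 CPM with IL-33, at 5.04, 6.07, 10.05 and 5.37 with PBS and at 5.97, 10.05, 5.74 and 7.56 with added PBS. Only replicate 3 of the floxed controls reached the range of these deficient libraries. Over the 22 libraries from deficient recipients Cd4 ran from 2.38 to 32.1 CPM (median 5.85), and over the 19 from competent recipients from 0.941 to 17.4 (median 1.73). Of the 19 competent-recipient libraries 15 lay at or below the lowest deficient one, more than for any other of the 10 genes.

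Cd8a and Cd8b1 encode the chains of CD8, the co-receptor of cytotoxic T cells, and were the least abundant genes per kilobase of exon. Cd8a ran from 0.226 to 0.5 CPM in wild-type lesions, from 0.486 to 0.981 in floxed controls, from 0.124 to 0.383 in Cre controls and from 0.276 to 0.961 in IL-33-treated deficient lesions. In the Cre fragments in deficient recipients it stood at 1.63, 1.59, 68.8 and 1.00 CPM and in the deficient fragments in Cre recipients at 6.88, 0.422, 1.4 and 0.41. Cd8b1 stood at 0.485, 0.561, 27.8 and 0.343 CPM and at 1.56, 0.235, 0.535 and 0.121 in these groups. Outside both transfer groups no library exceeded 2.15 CPM for Cd8a or 1.06 CPM for Cd8b1.

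Foxp3, the defining factor of regulatory T cells, had group medians from 0.660 CPM in floxed controls to 2.80 CPM in Cre fragments in deficient recipients. It stood at 0.839, 2.42, 1.03 and 1.07 CPM in wild type, 0.585, 0.736, 1.99 and 0.445 in floxed controls, 1.80, 2.32, 1.19 and 0.901 in Cre controls and 2.39, 0.888, 2.06 and 1.87 in IL-33-treated deficient lesions. These groups overlapped. In the transfer groups it stood at 2.73, 2.87, 14.8 and 2.72 CPM (Cre fragments) and at 7.18, 2.28, 1.5 and 1.5 CPM (deficient fragments).

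Ctla4 had another order. Its highest group median was in wild-type lesions, with 1.65, 5.29, 3.22 and 3.95 CPM, and its lowest in floxed controls, with 0.480, 0.566, 1.52 and 0.789. Cre controls stood between them at 2.62, 2.12, 2.14 and 1.91 CPM and did not overlap the floxed controls. Deficient lesions with IL-33 had 1.09, 1.13, 1.76 and 1.02 CPM. Cre fragments in deficient recipients had 1.66, 2.45, 19.3 and 1.42 CPM and deficient fragments in Cre recipients 7.87, 3.5, 1.68 and 2.27.

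Ikzf2 and Lrrc32 varied least. Ikzf2 had group medians from 15.4 CPM in wild-type lesions given 120000 ILC2s to 30.0 CPM in deficient lesions given the same number. Its highest library was again replicate 3 of the Cre fragments in deficient recipients at 94.3 CPM, against 31.9, 25.7 and 24 in the other 3. Lrrc32 had group medians from 56.5 CPM in IL-33-treated deficient lesions to 82.0 CPM in wild-type lesions given 120000 ILC2s, and in that same T-cell-rich library it was at its lowest of the series, 40.8 CPM. In the order of group medians, neighbouring groups overlapped in their ranges for each of the 10 genes.

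The highest library weighed differently on the group means. Of 110 means (10 genes in 11 groups), 29 fell by more than 1.5 times when their highest library was left out, in 6 of the groups. Replicate 3 of the Cre fragments in deficient recipients carried 9 of them and replicate 1 of the deficient fragments in Cre recipients 8. Replicate 1 of the deficient lesions given 120000 ILC2s carried 7, where the group has only 1 other library. Replicate 3 of the floxed controls carried Cd4 and Foxp3, replicate 2 of the wild type Cd3d and Cd8b1, and replicate 1 of the wild-type lesions given 120000 ILC2s carried Cd8a. No Lrrc32 mean depended on 1 library in this way.

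**Figure D2:**
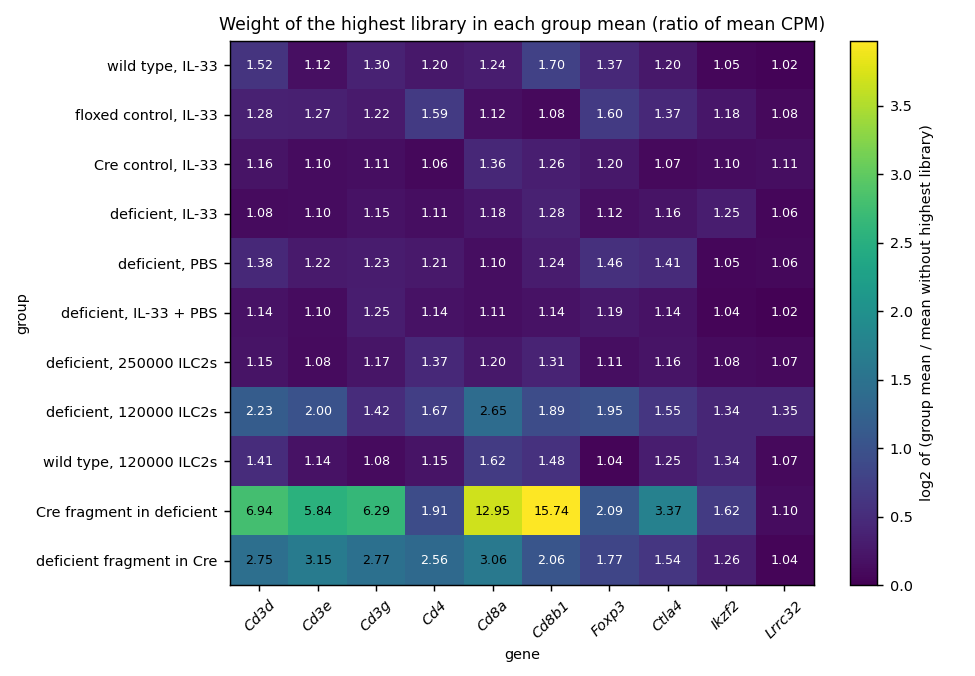
Ratio of each group's mean CPM to its mean without its highest library, for 10 genes (columns) in 11 groups (rows), with colour on a log2 scale and the ratio printed in each cell. The row of Cre fragments in deficient recipients reaches 15.74 for Cd8b1 and 12.95 for Cd8a, and every Lrrc32 cell is at most 1.35.

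In the Cre fragments in deficient recipients the single library held 95.2% of the summed Cd8b1 level of the group, 94.2% of Cd8a, 87.2% of Cd3e and 64.0% of Foxp3. The Cd8a mean was 18.3 ± 33.7 CPM (SD, n = 4) with it and 1.41 ± 0.35 CPM (n = 3) without it. The Cd3e mean was 22.8 ± 37.9 CPM with it and 3.91 ± 0.73 without it. In the deficient fragments in Cre recipients, replicate 1 held 76.2% of the group's Cd3e, 75.5% of Cd8a and 70.7% of Cd4. The Cd4 mean there was 6.15 ± 7.5 CPM with it and 2.40 ± 0.14 CPM without it. The SD of either group was mostly that 1 library.

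Other genes moved with the members in these libraries. In replicate 3 of the Cre fragments the summed level of 20 other T cell genes was 863 CPM, 5.27-fold over the median of the other 3 libraries of its group. Trac, the constant region of the T cell receptor alpha chain, stood at 50.8 CPM against 3.34 to 5.38. The 9 cytotoxic and NK genes summed to 182 CPM against 9.04 to 11, a 19.4-fold difference from the median, with the granzyme gene Gzmb at 20.8 CPM against 0.281 to 1.01 and Nkg7 at 37.9 CPM against 1.10 to 1.71. The inhibitory receptor gene Pdcd1 was at 41.5 CPM against 0.791 to 1.94.

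Markers of other cell types in that library did not all follow. The 10 B cell genes summed to 509 CPM against 527 to 984 in the other 3, and the 8 macrophage genes to 1385 CPM against 973 to 1571. The 9 lymphoid tissue genes summed to 111 CPM, 3.27-fold over the median, but Glycam1, a marker of lymph node vessels, was at 1.31 CPM against 2.14 to 3.61. The 8 endothelial genes were lower, at 501 CPM against 872 to 949, as was Lrrc32. No gene of these lists was at 0 in every library of the group, and the part of these cell types in the result was not tested.

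Replicate 1 of the deficient fragments in Cre recipients showed a smaller version. Its 20 other T cell genes summed to 373 CPM, 1.63-fold over the median of the other 3, and its cytotoxic and NK genes to 39.6 CPM, 6.44-fold. Its endothelial genes summed to 619 CPM against 843 to 921. The highest cytotoxic and NK sum outside both libraries was 49.1 CPM, in the added-PBS group, where Cd4 reached at most 10.05 CPM and Cd3e 5.37 CPM.

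The first comparison set IL-33-treated deficient lesions (n = 4) against the mean of the 3 competent genotypes (n = 12). Only Cd4 rose, by 1.54 ± 0.44 (log2 fold change ± SE; edgeR quasi-likelihood adjusted p = 0.0199). Of all genes 11% passed in this comparison, so 1 of 10 members is near the background. The other 9 genes did not pass. Cd8b1 was at 1.03 ± 0.79, Cd8a at 0.84 ± 0.74, Cd3e and Cd3g both at 0.65, Ikzf2 at 0.56 ± 0.28, Cd3d at 0.54 ± 0.67 and Foxp3 at 0.53 ± 0.45. Ctla4 was at −0.58 ± 0.51 and Lrrc32 at −0.36 ± 0.16 (adjusted p = 0.15). The median over the 10 genes was 0.60 and over all genes −0.01. In whole lesions, fewer cells of a type and less RNA per cell cannot be told apart. Against the Cre controls alone, which shared a run of library names with the deficient lesions, Cd4 stood at 1.73 and no longer passed (adjusted p = 0.0869), and against the floxed controls alone at 0.96 (0.291). Without replicate 1 or replicate 3 of the deficient lesions it was at 1.39 (adjusted p = 0.0688) and 1.44 (0.0515).

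Genes around these members divided in the same comparison. None of 20 other T cell genes passed (median 0.20), whereas with both T-cell-rich libraries left out of the shared fit Themis (1.17, adjusted p = 0.0238) and Cd6 (0.80, 0.0356) were higher and Lat (−0.86, 0.0476) lower. In the fit with all libraries, of 13 other regulatory T cell genes 1 rose and 1 fell. Il2ra, the IL-2 receptor alpha chain of regulatory T cells that ILC2s also carry, fell by 1.93 ± 0.39 (adjusted p = 0.00175), and the orphan receptor gene Gpr83 rose by 4.25 ± 0.82 (adjusted p = 0.00122). Gata3, the factor of type 2 helper cells and ILC2s, fell by 1.53 ± 0.34 (adjusted p = 0.00412) and was the only 1 of 9 T helper subset genes to pass. Of 8 costimulation and checkpoint genes, the PD-1 ligand gene Pdcd1lg2 fell by 2.11 ± 0.60 (adjusted p = 0.0215). Among 7 genes of latent TGF-beta, the partner of GARP, Tgfb2 rose by 0.86 ± 0.26 (adjusted p = 0.028) and the integrin gene Itgav by 0.45 ± 0.11 (adjusted p = 0.00823). None of 9 cytotoxic and NK genes or of 10 B cell genes passed, while 1 of 9 lymphoid tissue genes, Glycam1, rose by 3.13 ± 0.40 (adjusted p = 1.36e-05). Without both T-cell-rich libraries, 1 cytotoxic and NK gene was higher and still no B cell gene passed. In that fit 2 other regulatory T cell genes were higher and 2 lower. Among T helper subset genes 2 were lower, and among ILC2 genes 6. The values that follow are from the fit with all libraries. Dendritic cells can also carry CD4, and of 8 dendritic cell genes 1, Flt3, rose (0.75 ± 0.24, adjusted p = 0.0419). The others did not pass, with Xcr1 at 0.90, Siglech at 0.85, Cd209a at 0.49 and Clec9a at 0.37. Irf8 stood at −0.09, Zbtb46 at −0.20 and Itgax at −0.61 ± 0.29 (adjusted p = 0.17). The 8 genes summed to a median of 409 CPM in deficient lesions (393 to 665) against medians of 587 to 834 CPM in the 3 competent groups. Such a sum weighs the abundant genes most, and the part of dendritic cells in the Cd4 result was not tested. Among markers of other cells, Fcgr1 of macrophages rose by 1.18 ± 0.28 (adjusted p = 0.00615) and the epithelial keratin gene Krt19 by 2.05 ± 0.68 (0.046). Of 8 endothelial genes Kdr rose by 0.45 ± 0.14 (adjusted p = 0.0411) and Vwf fell by 0.77 ± 0.19 (0.00871). Of 8 ILC2 genes 5 fell, which were Il13, Gata3, Il5 (−4.12 ± 0.54, adjusted p = 1.99e-05), Il9r (−1.74 ± 0.31, 0.000632) and Il1rl1 (−1.72 ± 0.38, 0.00382).

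Lesion transfer asked whether the recipient or the fragment set the levels. Across both fragment genotypes (8 libraries from deficient against 8 from Cre-control recipients) 5 of the 10 members passed, 4 higher and 1 lower in deficient recipients, where 11.3% of all genes passed. Cd8b1 rose by 2.34 ± 0.70 (adjusted p = 0.0261), Cd8a by 2.31 ± 0.68 (0.0238), Cd4 by 1.42 ± 0.41 (0.0222) and Ikzf2 by 0.79 ± 0.25 (0.0397). Lrrc32 fell by 0.41 ± 0.14 (0.0436). Cd3e (1.25 ± 0.52, adjusted p = 0.123), Cd3g (1.19 ± 0.53, 0.151), Cd3d (1.01 ± 0.59, 0.29), Foxp3 (0.55 ± 0.40, 0.41) and Ctla4 (−0.06 ± 0.42, 0.951) did not pass. The median over the members was 1.10, beside 0.01 over all genes.

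**Figure D3:**
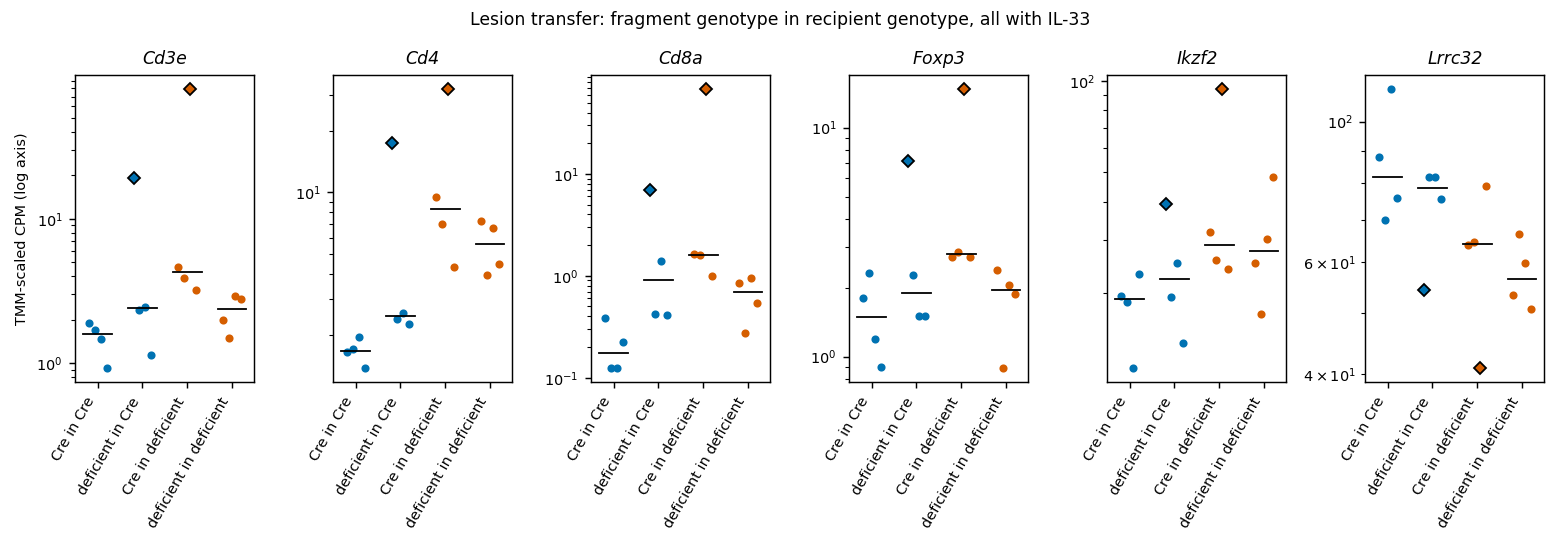
Level of 6 genes (CPM, log axis) in the 4 groups of the lesion-transfer design, named as fragment genotype in recipient genotype, with a point per library (n = 4 each), bars for medians, blue for Cre-control recipients, orange for deficient recipients and diamonds for the T-cell-rich libraries. The Cd4 points of deficient recipients start at 3.92 CPM, above all Cre-recipient points except the diamond at 17.4 CPM.

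These calls depended on single libraries. The counts below are given without the share of all genes passing in the same fit, so they have no background beside them. Without replicate 3 of the Cre fragments none of the 10 members passed, with Cd4 at 0.97 (adjusted p = 0.0912), Cd8a at 0.48 (0.552) and Cd3e at −0.01 (0.993). Without replicate 1 of the deficient fragments 8 passed, with Cd3e at 2.07 (0.00559), Cd3g at 1.92 (0.0131), Cd3d at 1.74 (0.0478) and Cd4 at 2.09 (0.000384). With both left out, Cd4 (1.64, adjusted p = 0.000663), Cd8a (1.28, 0.0287) and Cd3e (0.81, 0.0405) passed, while Cd8b1 (0.89, 0.193), Ikzf2 (0.62, 0.051) and Lrrc32 (−0.38, 0.051) did not. No member passed without replicate 2 or replicate 4 of the deficient fragments either, or when only the 4 groups compared were fitted, where Cd4 stood at 1.44 (adjusted p = 0.0925). Cd4 passed with both T-cell-rich libraries present and with both absent, and did not pass with only the higher of them absent.

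**Figure D4:**
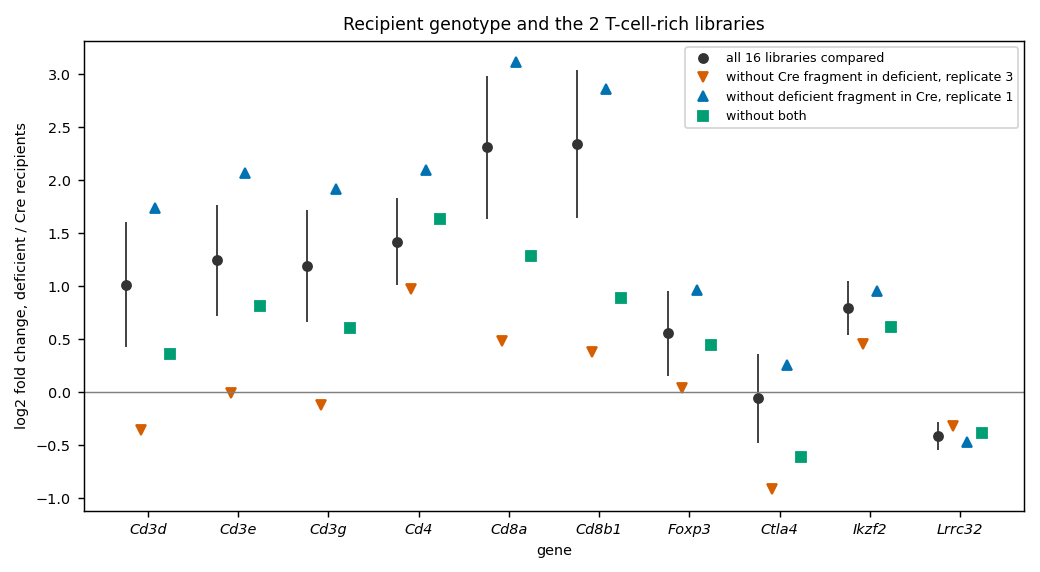
Log2 fold change between deficient and Cre-control recipients for the 10 genes, with all 16 libraries compared (circles with standard errors) and without either or both T-cell-rich libraries (triangles and squares). Cd4 keeps a positive value in each setting, from 0.97 to 2.09, whereas Cd3e runs from −0.01 to 2.07.

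A contrast of the recipient effect between fragment genotypes also sets lesions in their own genotype against crossed lesions. Their library names lie in different runs, so a genotype-dependent recipient effect, the crossing and the run cannot be told apart. Contrasts within a single fragment genotype also cross runs. With this limit, the recipient effect differed between fragment genotypes for 5 members. Its difference, deficient minus Cre fragments, was −8.19 ± 1.44 for Cd8a (adjusted p = 0.0113), −6.98 ± 1.43 for Cd8b1 (0.0309), −5.74 ± 1.24 for Cd3d (0.0359), −5.36 ± 1.09 for Cd3e (0.0309) and −5.14 ± 1.10 for Cd3g (0.0349), where 0.414% of all genes passed. Cd4 (−3.13 ± 0.82, adjusted p = 0.0724), Ctla4 (−3.11 ± 0.86, 0.08) and Foxp3 (−2.68 ± 0.81, 0.0922) did not pass in edgeR. DESeq2, which gave an adjusted p for 7 members, also called 5, but these were Cd3d, Cd3g, Cd4 (−3.12, adjusted p = 0.0108), Ctla4 (−3.10, 0.0183) and Foxp3 (−2.68, 0.0441). In Cre fragments alone 7 members were higher in deficient recipients, among them Cd8a by 6.41 (adjusted p = 0.00182) and Cd4 by 2.98 (0.00743), where 4.05% of all genes passed. With both T-cell-rich libraries left out 3 members passed there, Cd8a (2.73, adjusted p = 0.00771), Cd4 (2.06, 0.00771) and Cd3e (1.39, 0.0362), beside 1.93% of all genes. In deficient fragments alone none passed, beside 4.54% of all genes, with Cd8a at −1.79 (0.254) and Cd4 at −0.15 (0.92).

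This difference rested on the same libraries. None of the 10 genes passed without replicate 3 of the Cre fragments, without replicate 1 of the deficient fragments or without both, when Cd8a was at −2.90 (adjusted p = 0.351) and Cd3e at −1.16 (0.398). None passed without replicate 2 of the deficient lesions or replicate 3 of the Cre controls, both with liver transcripts, and with all liver libraries left out Cd8a stood at −7.77 (adjusted p = 0.126). Of 20 other T cell genes 9 were lower in the same test, among them Themis (−6.22 ± 1.32, adjusted p = 0.0331), Cd247 (−4.49 ± 0.95, 0.0331), Cd6 (−4.63 ± 1.03, 0.0408) and Bcl11b (−3.56 ± 0.80, 0.0437). Genes of other lists were also lower. They were the type 1 helper factor Tbx21 (−5.49 ± 1.09, adjusted p = 0.029), the chemokine receptor gene Cxcr3 (−3.84 ± 0.89, 0.0457), Nkg7 of cytotoxic cells (−5.70 ± 1.27, 0.0417) and Flt3 of dendritic cells (−1.98 ± 0.44, 0.0417). With both T-cell-rich libraries left out none of these passed, Themis being at −0.95 (adjusted p = 0.65), Tbx21 at −1.59 (0.353), Nkg7 at −0.94 (0.681) and Flt3 at −1.15 (0.351).

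In the recipient comparison 2 of 20 other T cell genes rose and 1 fell. They were Trdc, the constant region of the gamma-delta receptor's delta chain (1.85 ± 0.44, adjusted p = 0.00554), Thy1 (0.61 ± 0.18, 0.024) and the IL-7 receptor gene Il7r (−0.93 ± 0.30, 0.0392), which ILC2s also carry. Of 13 other regulatory T cell genes, Entpd1, which encodes the ectonucleotidase CD39, rose by 0.42 ± 0.12 (adjusted p = 0.022) and Il2ra fell by 1.86 ± 0.31 (0.000177). Of 9 T helper subset genes Gata3 fell by 1.15 ± 0.27 (adjusted p = 0.00591), and of 8 checkpoint genes Pdcd1lg2 fell by 2.19 ± 0.47 (0.00268). The NK and CD8 T cell receptor gene Klrd1 rose by 1.63 ± 0.53 (adjusted p = 0.0404) as 1 of 9 cytotoxic and NK genes. Of 7 latent TGF-beta genes Tgfb1 fell by 0.58 ± 0.15 (adjusted p = 0.0106). Among the lymphoid tissue genes Glycam1 rose by 3.46 ± 0.41 (adjusted p = 1.47e-06), and none of 10 B cell genes passed. Of 8 endothelial genes Kdr (0.62 ± 0.13, adjusted p = 0.00182), Cdh5 and Tek rose and Vwf fell (−0.66 ± 0.16, 0.00628). Of 8 macrophage genes Mrc1 (−1.14 ± 0.24, adjusted p = 0.00182) and Mertk (−0.53 ± 0.16, 0.0254) fell and Fcgr1 rose (0.91 ± 0.26, 0.02), and of 8 dendritic cell genes Flt3 rose (0.91 ± 0.22, 0.00657) and Itgax fell (−0.79 ± 0.24, 0.0293). Of 8 ILC2 genes 6 fell, among them Il13 by 4.44 ± 0.41 (adjusted p = 1.88e-08), Il5 by 3.81 ± 0.38 (8.81e-08), Il1rl1 by 2.57 ± 0.31 (2.58e-06) and Il9r by 1.27 ± 0.24 (0.000886). With both T-cell-rich libraries left out, Trdc (1.49, adjusted p = 0.017), Il2ra (−2.31, 2.37e-06), Gata3 (−1.58, 6.24e-07), Entpd1 (0.50, 0.0151) and Flt3 (0.82, 0.00392) still passed. Klrd1 (0.90, 0.0944), Thy1 (0.53, 0.0614), Il7r (−0.99, 0.0506) and Itgax (−0.75, 0.0597) no longer did. Other genes passed only in that fit. Of 20 other T cell genes 1 was higher and 3 were lower in it, with 1 called in both fits. Of 13 other regulatory T cell genes 1 was higher and 3 were lower, with 2 called in both fits. The share of all genes passing in that fit is not given here. The part of these cell types in the members' changes was not tested.

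Fragment genotype, across both recipients (8 against 8), passed for none of the 10 members and for 0.00471% of all genes. Members ranged from −1.23 ± 0.70 for Cd8b1 to 0.31 ± 0.40 for Cd4, with a median of −0.44 beside −0.02 over all genes. Cd3e, at −0.63 ± 0.52, stood at 0.65 without replicate 3 of the Cre fragments (adjusted p = 0.978) and at −1.46 without replicate 1 of the deficient fragments (adjusted p = 0.997). At an unadjusted p under 0.05 the count was 0 in edgeR and 0 in DESeq2.

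IL-33 in deficient mice (n = 4 against 4 with PBS) changed none of the 10 genes past the threshold, where 0.00941% of all genes passed. Values ran from −1.28 ± 0.94 for Cd8b1 and −1.02 ± 0.91 for Cd8a to 0.49 ± 0.36 for Ikzf2, with Foxp3 at −0.10 ± 0.57 and Cd4 at −0.25 ± 0.57. No member had an unadjusted p under 0.05 in edgeR or DESeq2. With standard errors of 0.91 and 0.94 on the CD8 genes, a difference of 1 on the log2 scale was not detectable in these libraries.

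Transfer of ILC2s also gave no call. After 250000 ILC2s against added PBS (n = 4 each), 0% of all genes passed and the members ran from −1.10 ± 0.57 for Foxp3 to 0.37 ± 0.90 for Cd8a. Foxp3 was at 1.64, 1.57, 0.833 and 1.03 CPM after transfer and at 2.29, 4.07, 2.22 and 2.38 CPM with added PBS. The 4 transfer libraries lay below the 4 others, but the adjusted p was 0.58 in edgeR, where no member had an unadjusted p under 0.05, and Foxp3 was the 1 member with one in DESeq2. After 120000 ILC2s in deficient mice (n = 2 against 4) 0% of genes passed and Cd8b1 had the largest value at 1.14 ± 1.10. After 120000 ILC2s in wild-type mice (n = 3 against 4) 0% passed and values ran from −0.98 ± 0.66 for Ctla4 to 1.07 ± 1.12 for Cd8b1. In both, no member had an unadjusted p under 0.05 in edgeR or DESeq2.

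The competent genotypes were compared among themselves as a background for the deficient line. Between Cre and floxed controls (n = 4 each) none of the members and 0.329% of all genes passed. Ctla4 was higher in Cre controls by 1.39 ± 0.61 with an unadjusted p under 0.05 in both tools but an adjusted p of 0.291 in edgeR, and Cd8a was at −1.79 ± 0.98 (0.402). Wild type against both other controls (n = 4 against 8) gave 0 members beside 2.65% of all genes, with Ctla4 at 1.37 ± 0.50 (adjusted p = 0.121), again the 1 member with an unadjusted p under 0.05 in either tool. With both T-cell-rich libraries left out of the shared fit, Ctla4 passed there at 1.39 (adjusted p = 0.0214). Il2ra was higher in both contrasts, by 2.01 ± 0.44 in Cre against floxed controls (adjusted p = 0.0237) and by 1.36 ± 0.35 in wild type (0.0348), and these contrasts share control libraries.

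Added PBS against none in IL-33-treated deficient lesions (n = 4 each) compared 2 groups of 1 genotype in different runs of library names. None of the members passed beside 0.0141% of all genes. Values were 0.88 ± 0.73 for Cd3e, 1.11 ± 0.95 for Cd8b1, 0.60 ± 0.57 for Foxp3 and 0.39 ± 0.19 for Lrrc32, which alone had an unadjusted p under 0.05 in edgeR (none in DESeq2). The median over the members was 0.67 beside 0.01 over all genes. Gpr83, higher in deficient than in competent lesions, stood at −3.25 ± 1.18 here (adjusted p = 0.177) and Krt19 at −4.39 ± 1.04 (0.0799). The 9 uterine tissue genes summed to a median of 450 CPM with added PBS and 2039 CPM without it. The part of tissue content in these values was not tested.

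Ratios between members ask about composition. They were taken from log2 CPM with a prior count, so they are not wholly free of library scaling. The prior count also pulls ratios with a low-count gene toward equal levels, among them Cd8a to Cd3e in Cre controls. The 3 log2 ratios (Foxp3 to Cd3e, Cd8a to Cd3e and Ikzf2 to Foxp3) were compared in 9 comparisons with exact permutation tests, two-sided, and 0 of 27 passed after Benjamini-Hochberg adjustment. The lowest adjusted p was 0.257, with an unadjusted exact p of 0.0286, the smallest that 4 against 4 allows. Among 27 tests, a comparison of 4 against 4 or smaller could not pass by itself. The lack of a call in those comparisons therefore says little about composition. In Cre controls Foxp3 to Cd3e was 0.01 ± 0.31 (log2, SD, n = 4) against −0.94 ± 0.37 in floxed controls, without overlap. Cd8a to Cd3e was −2.64 ± 0.74 in Cre controls against −1.08 ± 0.68 in floxed controls, also without overlap. Ikzf2 to Foxp3 was 4.10 ± 0.32 after 250000 ILC2s against 3.37 ± 0.32 with added PBS. Between recipients Foxp3 to Cd3e was −0.67 ± 0.78 in deficient and −0.21 ± 0.60 in Cre recipients (n = 8 each, adjusted p = 0.46 by the exact permutation test).

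The pattern over the 41 libraries was compared between genes on log2 CPM as a description, since the libraries share groups and the 2 T-cell-rich libraries. The gene most like Cd3e was Cd3g (Pearson r = 0.96, Spearman rho = 0.93, and r = 0.91 without the 2 farthest libraries), followed by Cd5 (r = 0.95), an inhibitory surface protein of T cells, and the chemokine receptor gene Cxcr3 (r = 0.95). Cd8a was most like Cd8b1 (r = 0.93, rho = 0.87, 0.85 without 2), then Cd247 and Cd3e (both r = 0.88). For Foxp3 they were the protease gene Ctsc (r = 0.88, rho = 0.81, 0.83 without 2), Gpr171 (r = 0.88) and the NK-receptor family gene Klra2 (r = 0.87). The closest match of Ikzf2, Gm28112 (r = 0.92), lies inside an intron of Ikzf2 on the same strand, so their reads may not be fully separate, and the next were Gbp9 (r = 0.88) and Sp100 (r = 0.85). Lrrc32 had no close match, with Enpp1 at r = 0.73, Dhrs3 at 0.72 and Unc5b at 0.69.

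**Figure D5:**
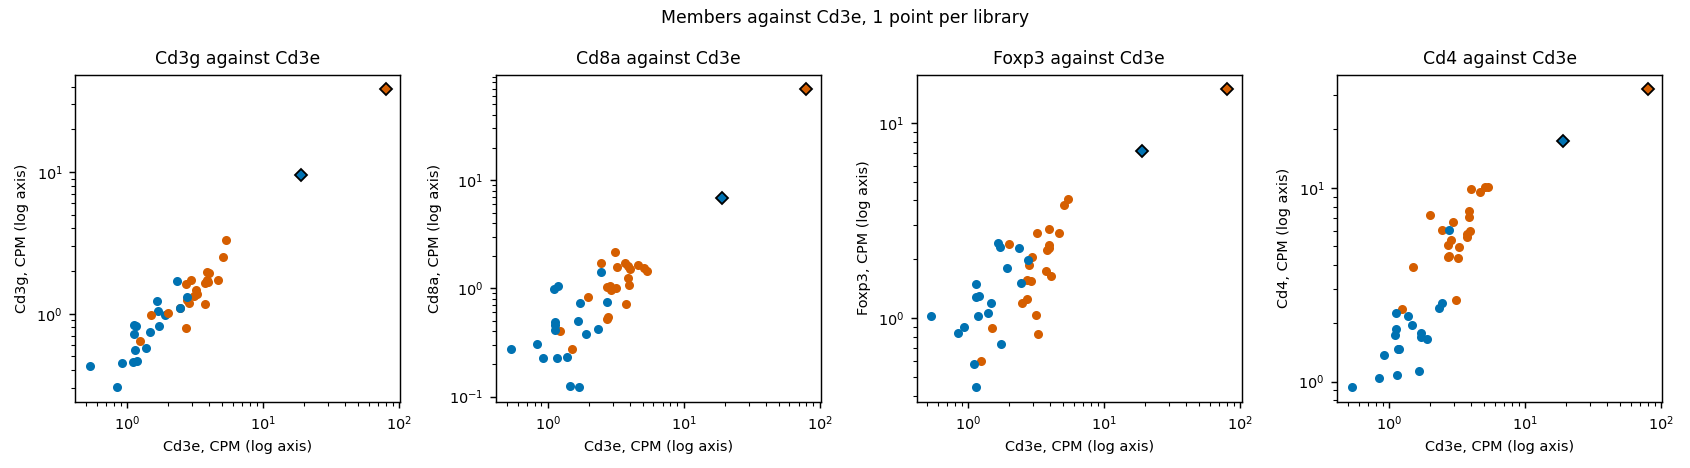
Cd3g, Cd8a, Foxp3 and Cd4 against Cd3e in 41 libraries (CPM, both axes log), blue for competent and orange for deficient recipients, diamonds for the T-cell-rich libraries. Cd3g follows Cd3e most closely (r = 0.96 on log2 CPM), and the 2 diamonds extend every panel.

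Among the members, Cd4 followed Cd3e with r = 0.88 over 41 libraries and 0.88 over the 39 without the T-cell-rich ones. Foxp3 followed Cd3e with r = 0.83 over all and 0.69 over the 39. Ctla4 followed Cd3e only through those libraries, with r = 0.50 over all and −0.02 over the 39, while it followed Foxp3 with 0.72 and 0.50. Lrrc32 did not follow the CD3 genes, with r = −0.36 to Cd3e over all libraries and −0.02 over the 39. Against the label of T cell genes, Lrrc32 thus varied apart from the CD3 genes in these lesions, as Ctla4 did outside the T-cell-rich libraries.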

How the data were processed

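RNA of whole snap-frozen lesions was sequenced (41 libraries, 11 groups). The authors deposited raw counts per gene in 1 table. Trimmomatic, STAR and HTSeq, then edgeR and limma, are named in the submitters' processing notes, with build GRCm38, and the annotation and strand setting are not given in the sources used here. Groups and replicate numbers came from the sample titles.

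A model of 11 group means was fitted to the counts with edgeR 4.0.16 (R 4.3.3) using TMM scaling and filterByExpr, which removed no gene. The robust quasi-likelihood test was two-sided, with 11 contrasts and Benjamini-Hochberg adjustment over 21249 genes at 0.05. Standard errors were obtained as the size of the log2 fold change over the root of its F statistic. Log2 CPM used a prior count of 2. The fit was tested on simulated data. Ratios were tested by exact permutation (scipy 1.17.1). Alternatives were DESeq2 1.42.0, other size factors, other filters, a replicate block, fits on fewer groups and leaving out each library.

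A group mean was called carried by 1 library if it fell by more than 1.5 times without it. The members and lists (147 entries, 139 measured; Ifng, Il4, Il17a, Il21, Cd40lg, Gzmk, Ccl21a and Ccl19 not analysed here) were chosen with earlier results of these data known. Text names all members, up to 4 called genes per list and comparison, and the 3 genes most like Cd3e, Cd8a, Foxp3, Ikzf2 and Lrrc32. A gene that this rule names is not reported here. Other genes were named after their values were seen (the liver, uterine and ILC2 markers and the marker genes of the T-cell-rich libraries). None of 58 pairs of libraries within a group agreed within sampling noise (chi-square over its degrees of freedom from 21.2 to 1358). Same-numbered libraries did not deviate together on average (mean correlation 0.0094).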

Additional observations from a re-analysis of the deposited data

Results flagged for a closer look

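Of 90 pairs of a gene and a group of 4 libraries, 23 had a library lying far from the other 3, each time the highest. The cut-off gives about 1 in 20 for independent, normally distributed values. These are unlogged CPM of genes that move together in the same libraries, so that rate is no measure of chance here. Replicate 3 of the Cre fragments in deficient recipients was that library 8 times, with Cd3d at 19.6 CPM, Cd3e at 79.6, Cd3g at 38.3, Cd8a at 68.8, Cd8b1 at 27.8, Foxp3 at 14.8, Ctla4 at 19.3 and Ikzf2 at 94.3. Replicate 1 of the deficient fragments in Cre recipients was it 6 times, with Cd3d at 6.75 CPM, Cd3e at 19.0, Cd3g at 9.50, Cd4 at 17.4, Cd8a at 6.88 and Foxp3 at 7.18.

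The other 9 came from 5 libraries. In replicate 2 of the added-PBS group Cd3e was at 5.37 CPM, Cd3g at 3.32, Foxp3 at 4.07 and Ctla4 at 2.19. In replicate 3 of the PBS group Cd3e was at 5.08 CPM and Foxp3 at 3.77. Cd4 was at 6.04 CPM in replicate 3 of the floxed controls, Foxp3 at 2.42 CPM in replicate 2 of the wild type and Ctla4 at 1.76 CPM in replicate 3 of the IL-33-treated deficient lesions.

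The effect of the recipient differed between fragment genotypes by the interaction test for Cd8a (−8.19), Cd8b1 (−6.98), Cd3d (−5.74), Cd3e (−5.36) and Cd3g (−5.14, log2, deficient minus Cre fragments). None of these passed without both T-cell-rich libraries. The test also sets lesions in their own genotype against crossed lesions, in different runs of library names, and these cannot be told apart.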

How the results depend on the processing

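Signs were compared for values past the threshold in at least 1 of the fits. Counts of members in the alternative fits are given here without the share of all genes passing in them. The count of members in deficient against competent lesions, 1, was 0 against Cre or floxed controls alone and 0 to 1 when 1 library was left out. Between recipients the count of 5 was 3 with the replicate block, 3 without liver libraries, 3 without both T-cell-rich libraries, 3 by DESeq2 (7 members with an adjusted p), 0 when only the groups compared were fitted, 0 in deficient fragments alone, 3 in Cre fragments alone without both T-cell-rich libraries and 0 to 8 when 1 library was left out. In deficient fragments alone, with the T-cell-rich replicate 1 in the fit, the values of Cd4 (−0.15), Cd8a (−1.79) and Cd8b1 (−1.15) had the other sign. For the interaction the count of 5 was 1 with the replicate block, 0 without liver libraries, 0 without both T-cell-rich libraries, 0 when only the groups compared were fitted, 5 of 7 by DESeq2 (Cd3d and Cd3g shared with edgeR) and 0 to 7 when 1 library was left out. In wild type against both controls the count rose from 0 to 1 without both T-cell-rich libraries. The cause was not tested. In the other 7 comparisons the count stayed at 0 in every alternative run. The labels do not say whether equal replicate numbers pair samples. Of 191 same-numbered pairs 65 correlated above 0.1 and the lowest was −0.634, which does not settle it. The stricter filter left Cd8b1 out. Leaving out the T-cell-rich libraries and splitting controls or fragments were chosen after seeing the data. Depth limits Cd8b1 most.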
